A study of Arabidopsis thaliana with 3 samples.

Results

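The aquaporins of Arabidopsis are 35 channel proteins of 4 subfamilies, and their 35 gene loci were described here among 27444 protein-coding genes. The loci were taken from a fixed list of 13 plasma membrane intrinsic proteins (PIP), 10 tonoplast intrinsic proteins (TIP), 9 nodulin-26-like intrinsic proteins (NIP) and 3 small basic intrinsic proteins (SIP). Names are written with a hyphen, as in PIP1-1.

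The study profiled open chromatin by ATAC-seq, a method that lets the Tn5 transposase cut and tag exposed DNA, in 3 libraries of 1 group. The group is root tissue of Col-0 plants aged 14 days that carry an INTACT transgene, whose product, the WPP domain of RanGAP1 fused to GFP and a biotin tag, sits on the nuclear envelope so that streptavidin beads can pull nuclei down. The transgene was driven by the constitutive 35S promoter, so no single cell type of the root was targeted. How evenly the cell types were captured was not tested, and no second tissue or treatment was analysed. The study describes the libraries as biological repeats made from different amounts of nuclei, least in library 1 and most in library 3, while the labels do not name separate cultures, so the spread between them may be technical in part. In such bulk nuclei, fewer cells with open DNA and less open DNA per cell cannot be told apart.

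Aquaporins form pores for water and, in some members, for small solutes such as glycerol, ammonia, boric acid or hydrogen peroxide. PIPs sit in the plasma membrane and TIPs in the vacuolar membrane, and together they carry much of the water that crosses root cells. PIP1 proteins generally need PIP2 partners to reach the plasma membrane. NIPs conduct metalloids and other uncharged solutes, and SIPs sit in the endoplasmic reticulum.

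Signal is the mean window count from 1000 bp upstream to 400 bp downstream of the transcription start site (TSS), divided by the mean count of the same library over the 5 nuclear chromosomes. Every gene has a window of the same length, so gene length does not enter a level, but repeated sequence in the window does, as at TIP1-2. Accessible sites are the peaks of the authors' list for each library. A site was counted as near the start where it overlapped that window by at least 1 bp. Summed over all windows, libraries 1, 2 and 3 held 61786860, 64805459 and 113785786 counts, with a mean per window of 13.0, 13.6 and 23.9. They correspond to an estimated 9850039, 10223285 and 18130442 reads, and to between 49 and 610 reads in the window of a single aquaporin. The lowest counts carry the largest counting error, and in the absence of molecular identifiers 2 reads may stem from 1 molecule.

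Sequences upstream of the genes the results turn on are shown first, read 5′ to 3′ on the strand of the gene from the RefSeq assembly TAIR10.1, whose nuclear coordinates are those of TAIR10. Capitals mark motif letters found on either strand. The motifs are the ACGT core and the W-box core TTGAC, to which WRKY factors bind. The TATA box was searched as TATAAA. The ACGT core and the W-box core may overlap. The first pair contrasts the aquaporin with the highest signal, TIP2-2 (chr4:9698690-9698939, plus strand, the 250 bases before its start), and the one with the lowest, NIP4-2 (chr5:15049752-15050001, plus strand, likewise).
TIP2-2: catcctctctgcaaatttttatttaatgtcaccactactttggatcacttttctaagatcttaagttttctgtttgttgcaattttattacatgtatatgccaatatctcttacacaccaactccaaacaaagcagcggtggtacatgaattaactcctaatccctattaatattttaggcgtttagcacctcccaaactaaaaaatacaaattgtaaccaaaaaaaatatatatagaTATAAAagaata
NIP4-2: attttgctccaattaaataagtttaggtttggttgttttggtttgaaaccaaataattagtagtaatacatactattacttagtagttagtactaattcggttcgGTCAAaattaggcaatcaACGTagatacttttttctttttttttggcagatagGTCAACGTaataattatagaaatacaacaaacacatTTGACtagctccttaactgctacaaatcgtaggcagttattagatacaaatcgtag
Both stretches held 30% G and C. The letters TATAAA started 12 bases before the start of TIP2-2, and were not in this stretch of NIP4-2, which held 2 ACGT cores and 3 W-box cores. The TIP2-2 stretch held a site called in 1 library only, and the strongest window of that gene lay outside it, at -789 bp. Any part of these letters in the signal was not tested.

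The other 4 stretches lie at sites that each of the 3 libraries called. They are the start-proximal site of the root gene TIP1-1 (chr2:15445140-15445293, plus strand), the sites of the pollen genes TIP1-3 (chr4:625886-626035, minus strand) and NIP4-1 (chr5:15044733-15044883, plus strand), and the summit region of the broad site between the divergent genes PIP2-2 and PIP2-3 (chr2:15616327-15616477, read on the strand of PIP2-3).
TIP1-1: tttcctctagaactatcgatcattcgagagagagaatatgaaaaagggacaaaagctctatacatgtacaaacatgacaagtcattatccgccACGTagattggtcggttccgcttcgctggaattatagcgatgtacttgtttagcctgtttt
TIP1-3: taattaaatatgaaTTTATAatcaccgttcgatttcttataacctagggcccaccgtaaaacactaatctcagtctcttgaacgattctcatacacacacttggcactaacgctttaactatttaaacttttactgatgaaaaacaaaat
NIP4-1: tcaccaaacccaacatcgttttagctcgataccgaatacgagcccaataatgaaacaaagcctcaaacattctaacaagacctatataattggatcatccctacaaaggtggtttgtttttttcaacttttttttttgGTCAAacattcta
PIP2-2 and PIP2-3: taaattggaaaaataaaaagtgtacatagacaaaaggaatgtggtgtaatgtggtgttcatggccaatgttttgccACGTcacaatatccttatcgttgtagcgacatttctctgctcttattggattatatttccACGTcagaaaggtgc
The last stretch held 2 ACGT cores, and the TIP1-1 stretch held 1.

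Motif letters in the promoters, from 250 bp before the start through the first 50 transcribed bases, had shares among the aquaporins near those among all genes, except for the rarer G-box. The G-box CACGTG was in 1 of 35 aquaporin promoters, that of TIP3-2, and in 7.68% of all promoters of protein-coding genes. The ACGT core, which the G-box contains, was in 17 of 35 (48.6%) and 49.9%, the W-box core TTGAC in 20 of 35 (57.1%) and 50.5%, and TATAAA in 16 of 35 (45.7%) and 52.1%. The ACGT core was in 8 of 10 TIP, 4 of 13 PIP, 2 of 9 NIP and 3 of 3 SIP promoters. In the 200 bp centred on the summit, the G-box was in 10.5, 8.96 and 10.4% of the aquaporin sites of libraries 1, 2 and 3, and in 10.4, 8.97 and 9.39% of all sites. A match is a description of letters and was not tested as a binding site.

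As a family, the aquaporins had a median accessibility close to that of other genes, and they spread widely. Their median signal was 1.32 ± 0.0184, against 1.29 ± 0.0495 for all protein-coding genes (SD, n = 3 libraries). Of the 35, 8 were in the top 10% of genes in all 3 libraries and 1, NIP4-2, was in the bottom 10% in all 3, while 2092 and 2031 of the 27444 genes were. Member means ranged from 0.430 for NIP4-2 to 3.39 for TIP2-2, inside the range of all protein-coding genes, 0 to 4.99. The order was similar in each library, with Spearman correlations over the 35 members of 0.970 between libraries 1 and 2, 0.978 between 1 and 3, and 0.962 between 2 and 3. These are descriptions across genes, which share libraries and are not replicates. The median coefficient of variation across libraries was 9.12% for the members and 10.3% for all genes.

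**Figure D1:**
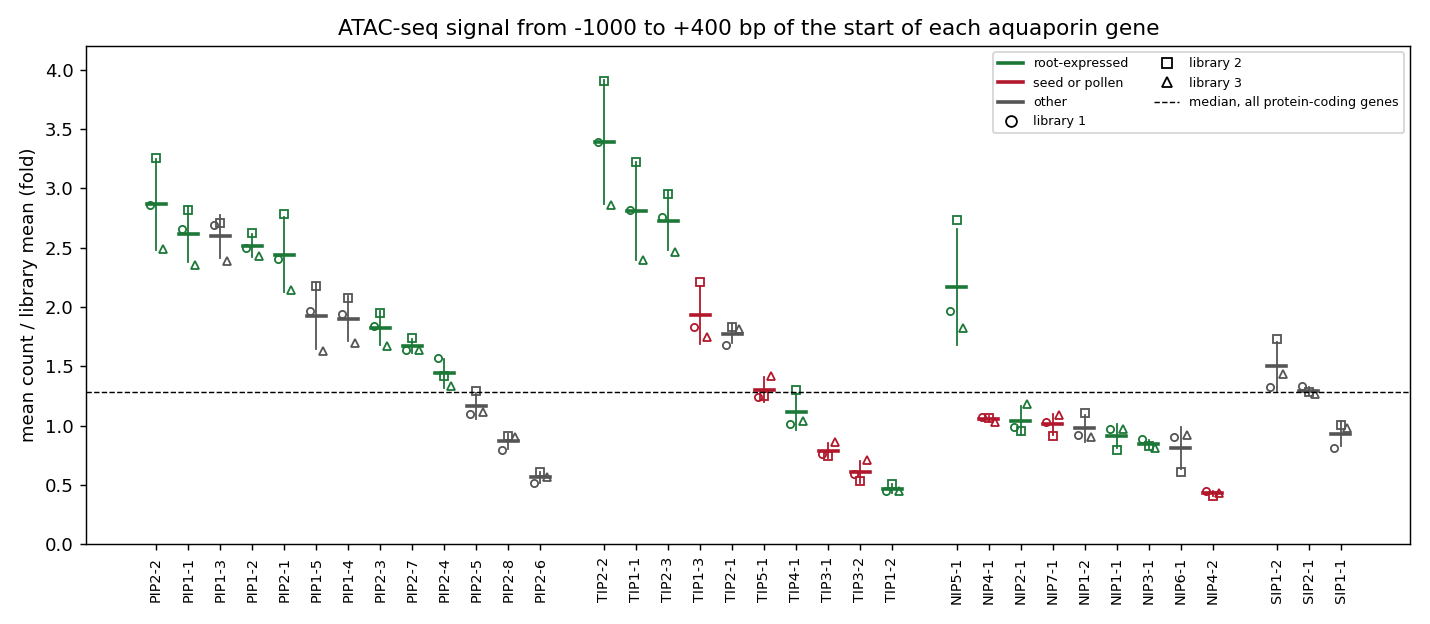
ATAC-seq signal near the start of each aquaporin gene, as fold of the library mean on the vertical axis, with genes grouped as PIP, TIP, NIP and SIP and ordered by mean. Symbols are the 3 libraries, horizontal bars the mean, vertical lines the SD, colours the expression class and the dashed line the median of all protein-coding genes, 1.29. TIP2-2 is highest at 3.39 and NIP4-2 lowest at 0.430.

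A site near the start was called in all 3 libraries for 17 of 35 aquaporins (48.6%), against a background of 46.4% of all protein-coding genes. Of these 17, 15 had the same merged site in all libraries, while in PIP2-7 and TIP2-1 no single site was in all 3. Another 14 members (40%) had no such site in any library, against 32.8% of all genes, and the other 4 (PIP2-8, TIP1-2, NIP1-1 and SIP1-1) had one in 1 library. From 2000 bp upstream to the gene end, 21 of 35 members (60%) had a site in all 3 libraries, against 59.3% of all genes. The family total was thus close to the background for each count, and the subfamilies made it up unequally: 9 of 13 PIP, 5 of 10 TIP, 2 of 9 NIP and 1 of 3 SIP genes had a site near the start in all libraries.

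Merging overlapping sites gave 91 distinct sites around the aquaporins and 93 pairs of a gene and a site. Before merging, the lists of libraries 1, 2 and 3 held 57, 67 and 77 sites there. Of the merged sites, 44 were called in 3 libraries, 18 in 2 and 29 in 1, and sites of 1 library were narrow (median 98 bp, against 288 bp for those of all libraries). Of the 46 pairs whose site was in all libraries, 32 lay upstream of the gene, 7 in exons of untranslated regions, 2 in introns, 1 in a coding exon, 3 beyond the gene end and 1 outside the transcript used. By summit, 17 were within 1000 bp upstream, 15 farther upstream, 6 in the first 400 transcribed bp and 8 beyond. In 31 of the 93 pairs the nearest TSS belonged to another gene. Library 2 had the highest fold enrichment over the peak caller's background in 37 of the 46 and library 3 the lowest in 42 of the 46. The libraries differ in depth, whose part in these folds was not tested.

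**Figure D2:**
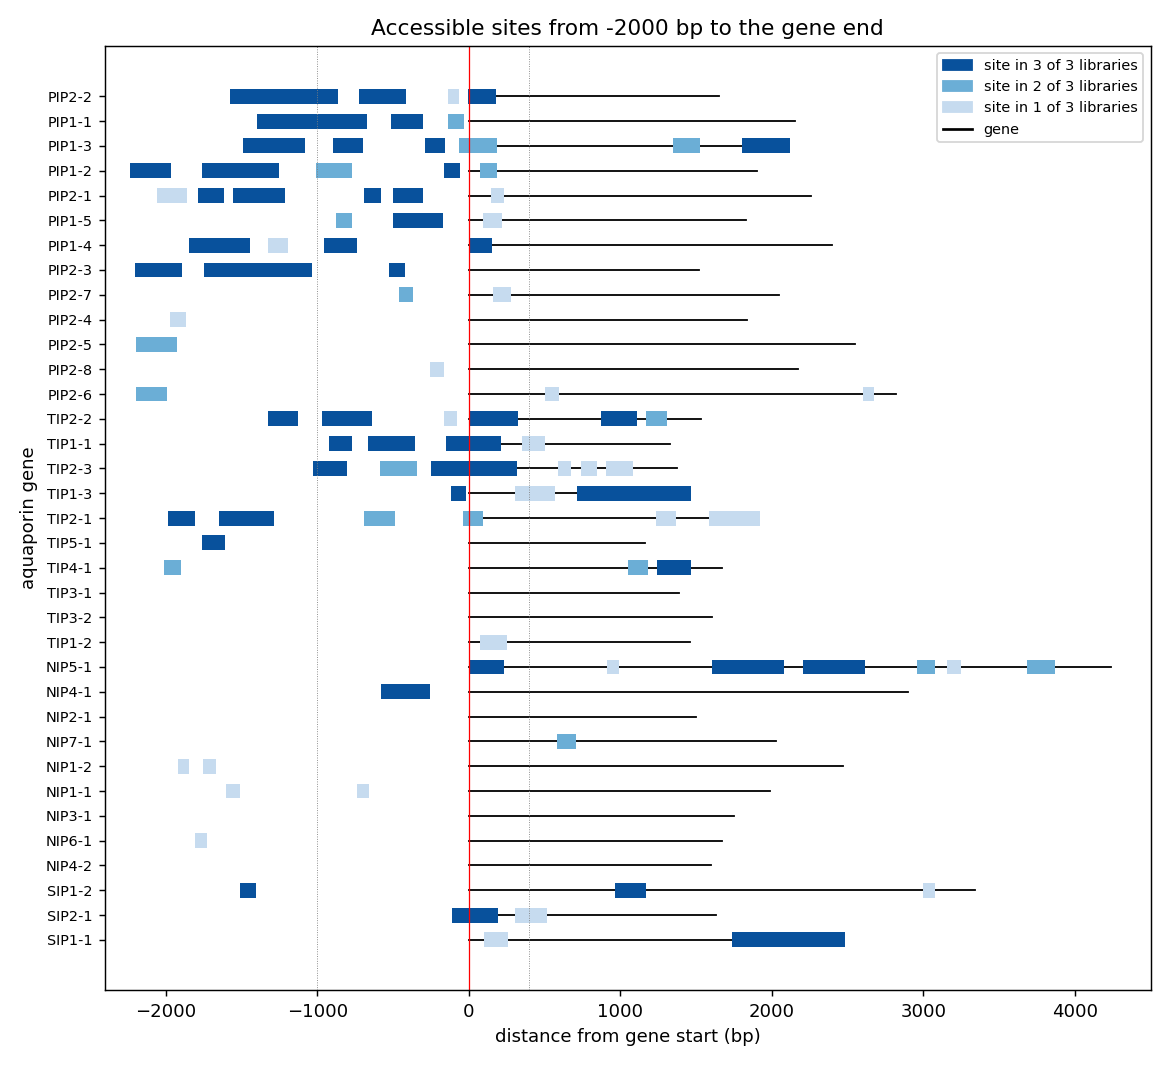
Accessible sites of each aquaporin from 2000 bp upstream of the TSS to the gene end, with distance from the gene start in bp on the horizontal axis and genes ordered by mean signal within PIP, TIP, NIP and SIP. Bars are merged sites, darkest for those in 3 of 3 libraries, black lines the genes, and dotted lines the limits of the window from -1000 to +400 bp. NIP2-1, NIP3-1, NIP4-2, TIP3-1 and TIP3-2 have no site, and TIP1-3 and NIP5-1 have sites inside or past the gene.

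Among PIPs, all 5 PIP1 genes had sites near the start in every library, and 4 of 8 PIP2 genes (50%) did, close to the 46.4% of all genes. PIP1-1 (AT3G61430, chr3:22733243-22735394, plus strand) had a signal of 2.66, 2.82 and 2.36 in libraries 1, 2 and 3. PIP1-2 (AT2G45960), a major contributor to root hydraulic conductivity, had 2.50, 2.62 and 2.43. PIP1-3 (AT1G01620) had 2.69, 2.71 and 2.39. These 3 genes differed by less than the spread between libraries. PIP1-4 (AT4G00430) and PIP1-5 (AT4G23400) were lower, at 1.94, 2.07 and 1.69, and at 1.97, 2.18 and 1.63. All 5 PIP1 genes had their nearest upstream gene on the opposite strand, against 46.8% of all genes. These neighbours lay 692 bp (PIP1-5, a noncoding RNA gene) to 5848 bp (PIP1-4) away. The strongest window of PIP1-1 and of PIP1-3 lay at -842 and -808 bp from the start, at 5.71, 5.52 and 5.19 and at 4.86, 4.85 and 4.65 times the library mean. At PIP1-1 the nearest TSS to the strongest site was that of its neighbour AT3G61420, 1091 bp away from the gene. At PIP1-3 the sites with summits at -790 and -1318 bp were nearest the TSS of its neighbour AT1G01630, 1256 bp away. Which gene these sites serve was not tested. PIP1-2 had its strongest window at -105 bp (4.24, 4.34 and 3.60).

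PIP2 genes covered a wider range. PIP2-2 (AT2G37170, chr2:15613368-15615022, minus strand), a water channel of root cells, had the highest PIP signal at 2.86, 3.25 and 2.48, and PIP2-1 (AT3G53420), a much studied water channel, had 2.40, 2.78 and 2.14. PIP2-3 (AT2G37180, chr2:15617635-15619155, plus strand), named RD28 for its response to drying, had 1.84, 1.95 and 1.67. PIP2-2 and PIP2-3 are 2613 bp apart on opposite strands and 94.8% identical in aligned coding bases, and they shared 2 sites, of 711 and 312 bp, that every library called. Within this pair PIP2-2 was 1.57 ± 0.0921-fold higher, and the libraries did not overlap. PIP2-7 (AT4G35100) had 1.64, 1.74 and 1.63, and PIP2-4 (AT5G60660), a root gene, had 1.57, 1.42 and 1.33 with no site near the start. PIP2-5 (AT3G54820) had 1.10, 1.29 and 1.11, PIP2-8 (AT2G16850) had 0.791, 0.909 and 0.901, and PIP2-6 (AT2G39010) had 0.519, 0.611 and 0.563. These last 3 were below the median of all genes in every library.

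The TIP genes held the highest aquaporin and the second lowest. TIP2-2 (AT4G17340, chr4:9698940-9700472, plus strand), a root tonoplast channel, had 3.39, 3.91 and 2.86. Its strongest window lay at -789 bp, at 5.86, 6.55 and 4.36 times the library mean. The site there was nearest the TSS of the neighbour AT4G17330, 1234 bp away from TIP2-2, and which gene it serves was not tested. TIP1-1 (AT2G36830, chr2:15445294-15446621, plus strand), named gamma-TIP, had 2.82, 3.22 and 2.39. TIP2-3 (AT5G47450), a root ammonia channel, had 2.76, 2.96 and 2.47. Within 200 bp of the start the means of TIP2-2, TIP1-1 and TIP2-3 were 3.49 ± 0.598, 3.51 ± 0.725 and 3.59 ± 0.262. All 3 were above the median of all genes in every library, and each had a site in every library that reached across or began at the start. TIP2-2 also had a site in a coding exon, with its summit 1007 bp past the start. TIP2-1 (AT3G16240), named delta-TIP, had 1.68, 1.83 and 1.81, and TIP4-1 (AT2G25810), a root gene, had 1.01, 1.30 and 1.04 with no site near the start. Its site in all libraries lay in an exon near the gene end, nearest the start of ESE2.

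TIP1-2 (AT3G26520, chr3:9722443-9723904, minus strand), a root gene and the closest relative of TIP1-1, showed the second lowest signal of the family, 0.449, 0.510 and 0.447. Of the 61-base stretches in its window, 29.7% occur once in the genome. Reads with more than 1 genomic position were not kept, and 338 genes (1.23%) had a share as low or lower. The repeat runs for 12276 bp (chr3:9723878-9736153), from -12249 to +26 bp of the start, and each sampled 61-base stretch in it occurs 2 to 10 times. The 100 bases before the start (chr3:9723905-9724004, minus strand) show it, in capitals because every base lies in the repeat.
TIP1-2: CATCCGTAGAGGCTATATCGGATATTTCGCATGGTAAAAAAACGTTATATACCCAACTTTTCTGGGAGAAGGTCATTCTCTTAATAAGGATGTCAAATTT
Signal was 0 in all 3 libraries in windows centred at least 100 bp inside the repeat, where a read of 61 bases has more than 1 matching place. From the start to 400 bp downstream its signal was 1.52, 1.75 and 1.54, above the library mean. TIP1-1 was 5.99 ± 0.542-fold higher than TIP1-2 over the full window, with the repeat included in the lower value. In PIP2-3 and NIP3-1, 94.3 and 89.3% of the stretches were unique, and in the other 32 members all were.

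**Figure D3:**
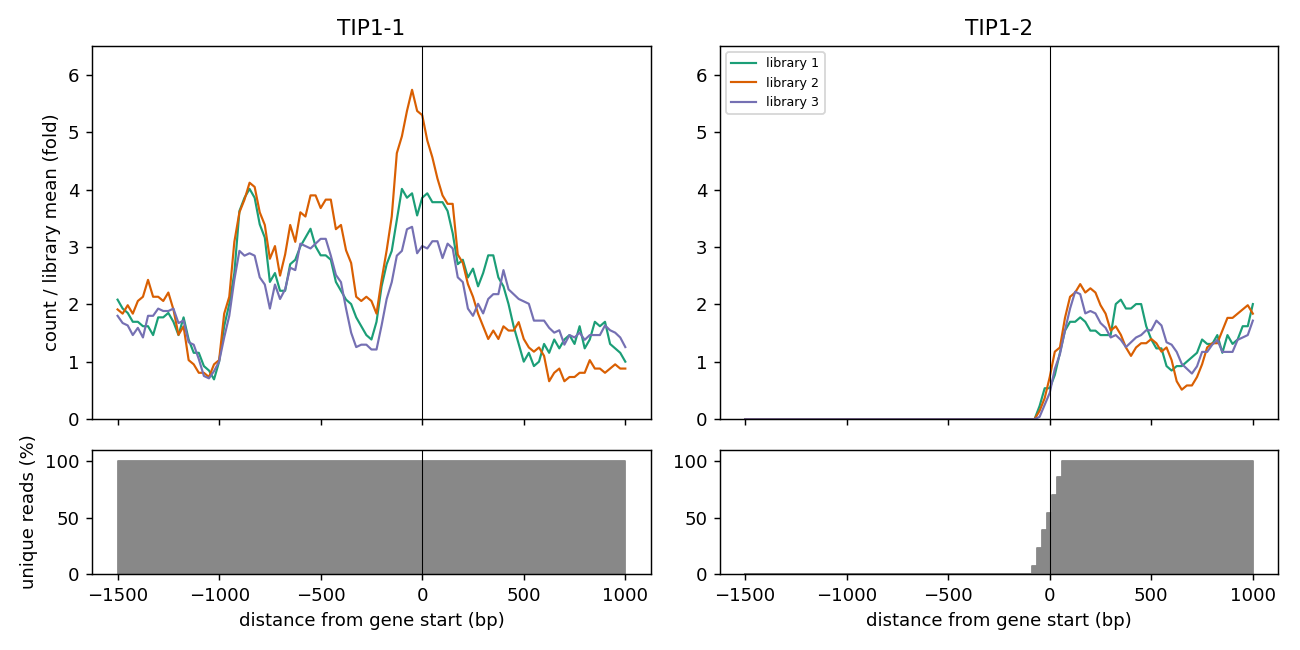
Signal at TIP1-1 (left) and TIP1-2 (right) against distance from the gene start in bp, as fold of the library mean for each of the 3 libraries (upper panels), with the share of 61-base reads that map to 1 place (lower panels). TIP1-1 has unique sequence throughout and its highest window at -43 bp, while at TIP1-2 the signal and the unique share are at 0 from -100 bp to the left edge of the plot.

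The remaining TIP genes are seed or pollen genes. TIP1-3 (AT4G01470, chr4:624786-625885, minus strand), a pollen gene, had 1.83, 2.21 and 1.75 and stood above the median of all genes in every library. It had a site just upstream of the start and a second of 751 bp at and past the gene end, both in all libraries. The neighbouring gene AT4G01480 lies 184 bp upstream of TIP1-3 on the opposite strand, and which gene the upstream site serves was not tested. TIP5-1 (AT3G47440), also a pollen gene, had 1.24, 1.25 and 1.42. TIP3-1 (AT1G73190) and TIP3-2 (AT1G17810), which encode the alpha and beta tonoplast proteins of seed storage vacuoles, had 0.762, 0.741 and 0.863, and 0.588, 0.533 and 0.710, with no site from 2000 bp upstream to the gene end in any library.

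Among NIPs, only NIP5-1 was above the median of all genes in every library. NIP5-1 (AT4G10380, chr4:6431161-6435396, minus strand), a boric acid channel for root boron uptake, had 1.96, 2.73 and 1.82, with library 2 well above the others. It had a site at its start in the untranslated first exon and 2 sites in introns, with summits 1963 and 2332 bp past the start, in all libraries. Its closest relative NIP6-1 (AT1G80760), which serves boron distribution in shoots, had 0.901, 0.608 and 0.923 and no site near the start. NIP5-1 was 2.18, 4.49 and 1.97 times NIP6-1 in libraries 1, 2 and 3. NIP4-1 (AT5G37810), a pollen gene, had 1.07, 1.06 and 1.03 with a site of 323 bp, its summit at -306 bp, in all libraries. Its neighbour and closest relative NIP4-2 (AT5G37820), 1990 bp downstream of it and also a pollen gene, had 0.450, 0.410 and 0.430 and no site. The ratio of NIP4-1 to NIP4-2 was 2.46 ± 0.122, and the libraries of the pair did not overlap. NIP7-1 (AT3G06100), a gene of the anther, had 1.03, 0.909 and 1.09. The arsenite channels NIP1-1 and NIP3-1 had means of 0.912 and 0.841, the lactic acid channel NIP2-1 had 1.04 and the aluminium malate transporter NIP1-2 had 0.977, and none of these 4 had a site near the start in all libraries.

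The 3 SIP genes lay between 0.809 and 1.73 in every library. SIP1-2 (AT5G18290) had 1.33, 1.73 and 1.44, SIP2-1 (AT3G56950) had 1.33, 1.29 and 1.26, and SIP1-1 (AT3G04090) had 0.809, 1.01 and 0.982. SIP2-1 had a site at its start in every library, with the neighbouring gene 32 bp upstream of it.

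Of 12 pairs of closest relatives by coding identity, 10 differed in the same direction in all 3 libraries. Among the 10 are TIP1-1 and TIP1-2, where the repeat enters the lower value. The order of all members was similar in each library, and the same share was not computed for pairs of other genes. The count is therefore not particular to close relatives. PIP1-1 and PIP1-2 (87.6% identity) were 1.04 ± 0.0585-fold apart and NIP1-2 and NIP1-1 1.09 ± 0.260-fold, and in these 2 pairs the libraries differed in direction. PIP2-7 was 1.93 ± 0.131-fold above PIP2-8, PIP2-5 2.07 ± 0.0824-fold above PIP2-6, TIP2-2 1.24 ± 0.0808-fold above TIP2-3 and SIP1-2 1.61 ± 0.130-fold above SIP1-1. The 1000 bp upstream were 52.1 to 65.4% identical across the 12 pairs, counted over aligned bases with gaps left out. Unrelated upstream sequences were not aligned for comparison, so these values do not show how much sequence the pairs share by descent.

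The subfamilies were compared by the mean log2 signal in each library. PIP genes were higher than NIP genes by 0.85 ± 0.14 on the log2 scale (1.81-fold, SD, n = 3 libraries), and a PIP gene exceeded a NIP gene in 82.1, 82.9 and 82.1% of pairs of genes in libraries 1, 2 and 3. PIP genes were higher than TIP genes by 0.29 ± 0.06 and than SIP genes by 0.49 ± 0.10, and TIP genes were higher than NIP genes by 0.56 ± 0.11 and than SIP genes by 0.20 ± 0.06. SIP genes were higher than NIP genes by 0.36 ± 0.14. PIP1 genes were higher than PIP2 genes by 0.68 ± 0.06 (1.60-fold). The individual genes overlapped in each of these comparisons. From 400 bp upstream to the start, the difference was -0.0022 for TIP and NIP genes and -0.13 for TIP and SIP genes, so their direction rests on the window. PIP minus TIP was 0.61 in that window, 0.068 within 200 bp of the start, 0.11 over unique windows and 0.12 without TIP1-2. SIP minus NIP was 0.13 and 0.67 in those 2 windows, and TIP minus SIP was 0.38 without TIP1-2. Over the main window all differences were positive in 3 of 3 libraries, but a two-sided exact sign-flip permutation test over 3 libraries cannot give p below 0.25, the value for each of the 10 comparisons made, and the adjusted p was also 0.25.

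The profile around the start showed where the subfamilies differed. PIP genes averaged 2.79 ± 0.217 at -1425 bp, 2.39 ± 0.205 at -850 bp and 2.08 ± 0.134 at 150 bp downstream. TIP genes averaged 2.02 ± 0.266 at -875 bp and 2.10 ± 0.169 at 50 bp downstream, and NIP genes reached 1.41 ± 0.0284 at 100 bp downstream. The peak of SIP genes at the start, 2.15 ± 0.219 at 75 bp downstream, was close to that of PIP genes. In the window from 200 bp upstream to 200 bp downstream, PIP minus SIP was -0.025 and TIP minus SIP -0.092 on the log2 scale. The highest PIP average lay upstream of the window used for the levels. At -1425 bp PIP2-2 and PIP2-3 both fall in their shared site of 711 bp, so this region enters the average of 13 genes more than once. For PIP1-1 and PIP1-3 that position lies past the start of the neighbouring gene, 1091 and 1256 bp away.

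**Figure D4:**
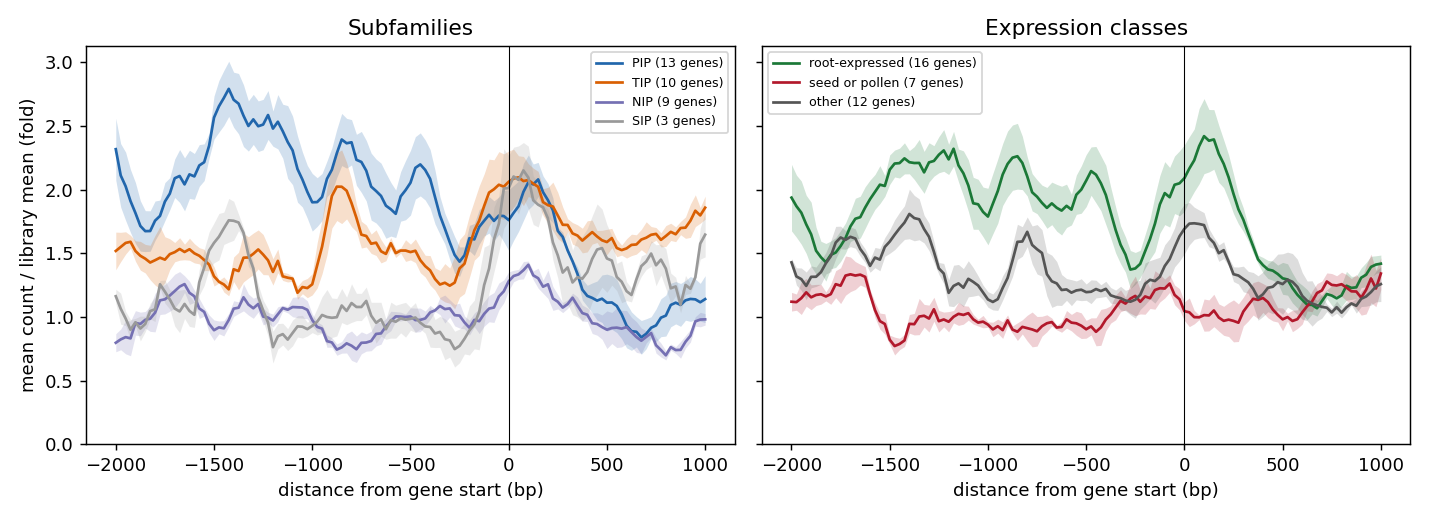
Mean signal by distance from the gene start in bp, as fold of the library mean, for the 4 subfamilies (left) and the 3 expression classes (right), with bands of 1 SD over 3 libraries. PIP genes are highest from -2000 to -200 bp, at 2.79 ± 0.217 at -1425 bp, TIP genes are highest from -175 bp to the start, the 3 SIP genes reach 2.15 at the start and seed or pollen genes stay between 0.771 and 1.33 upstream.

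Root-expressed genes had a higher signal than seed or pollen genes in each library. The classes are lists of 16 root-expressed, 7 seed or pollen and 12 other genes, taken from general knowledge of the family. Root-expressed genes had a median signal of 1.90, 2.29 and 1.75 in libraries 1, 2 and 3, seed or pollen genes 1.03, 0.909 and 1.03, and other genes 1.21, 1.29 and 1.19. The root-expressed genes were higher than the seed or pollen genes by 0.88 ± 0.16 on the log2 scale (1.84-fold, positive in 3 of 3 libraries, exact sign-flip p = 0.25, the smallest possible), and a root-expressed gene exceeded a seed or pollen gene in 77.7, 81.2 and 78.6% of pairs. A site near the start in all libraries was called for 10 of 16 root-expressed genes, 2 of 7 seed or pollen genes (TIP1-3 and NIP4-1) and 5 of 12 other genes, beside 46.4% of all genes. Within TIPs the difference was 0.68 ± 0.23 and within NIPs 0.57 ± 0.06. From 400 bp upstream to the start the difference was 0.40 over all genes, 0.12 within NIPs and -0.088 within TIPs. With medians it was -0.015 within NIPs, and without TIP1-2 it was 1.14 within TIPs. Members were uneven: 5 of 16 root-expressed genes (TIP1-2, TIP4-1, NIP1-1, NIP2-1 and NIP3-1) were below the median of all genes in every library, and the pollen gene TIP1-3 was above it. The low value of TIP1-2 includes the repeat, where no read could be kept. Over its unique windows alone, scaled to the mean of all unique windows, TIP1-2 had 1.52, 1.71 and 1.54. No PIP or SIP gene is in the seed or pollen class, so class and subfamily are partly confounded, and without the PIP genes the difference was 0.62.

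Gene spacing moved with these classes. Another gene lay within 1000 bp upstream in 3 of 16 root-expressed genes, 5 of 7 seed or pollen genes and 2 of 12 other genes, with median distances of 2263, 234 and 2265.5 bp, against 53.6% and 887 bp for all protein-coding genes. Ending each window at the neighbouring gene gave a difference of root-expressed and seed or pollen genes of 0.87. The nearest upstream gene was on the opposite strand in 19 of 35 aquaporins (54.3%), against 46.8% of all genes. The median signal of these 19 was 1.90, and 0.993 for the other 16, against 1.38 and 1.21 for all genes with and without such a neighbour. Of root-expressed genes, 11 of 16 had one, and of seed or pollen genes 1 of 7. The part of this arrangement in the differences was not tested.

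**Figure D5:**
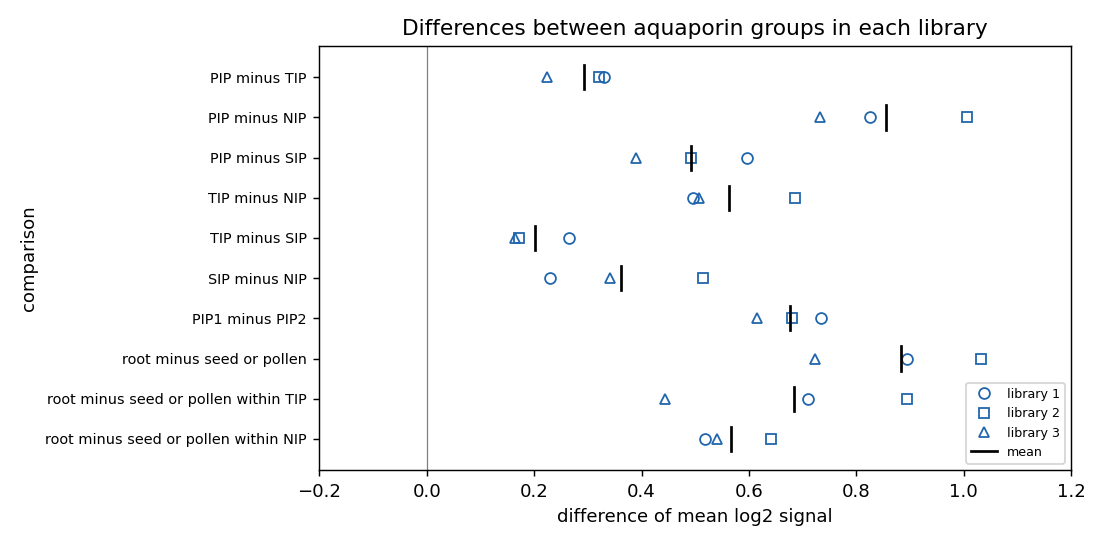
Difference of mean log2 signal between groups of aquaporins in each of the 3 libraries, first group minus second, with the mean as a black bar. All 30 values are above 0, and the largest mean is root-expressed minus seed or pollen at 0.88.

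A list of 10 genes whose products regulate aquaporins or bind them, among them the SNARE proteins SYP121 and SYP61, the kinases BAK1, SIRK1 and OST1 and the carbonic anhydrase BCA4, had a median signal of 2.00 and a site near the start in all libraries in 7 of 10, against 46.4% of all genes. BAK1 was highest, at 3.50, 3.94 and 3.02, and CPK7 lowest, at 1.13, 1.22 and 1.29.

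Marker genes were used to check the tissue, beside 46.4% of all genes with a site near the start in all libraries. Root markers had a median of 1.37 and such a site in 4 of 12 (33.3%), below the share of all genes, with the phosphate transporter PHT1-1 at 3.26 and the stem cell factor PLT1 at 0.653, seed storage genes 0.903 and 2 of 8, pollen genes 0.541 and 0 of 5, and leaf genes 0.988 and 2 of 6. The 5 pollen markers were below the median of all genes in every library, as were 12022 of all 27444 genes. Of the 7 seed or pollen aquaporins, 5 were also below it in every library. TIP1-3 was above it, and TIP5-1 was above or below it depending on the library. The rubisco gene RBCS1A reached 2.45 and the oleosin gene OLEO1 2.02, each with a site in every library, so an accessible start did not mark root genes alone. Accessibility is not expression, and no RNA was analysed here.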

How the data were processed

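The authors aligned single-end reads of 61 bp to TAIR10 with Bowtie, kept reads with 1 position, removed duplicates and called peaks with MACS2 in each library. They deposited whole-number counts of reads in windows of 100 bp that start every 25 bp, unscaled, and, in the peak lists, a fold enrichment at the summit (a ratio), a score, a summit position, and p-values and q-values as −log10. Versions were not given in the sources used here. Reads were estimated from the windows that a lone read fills, on average 6.27, 6.34 and 6.28. Windows with a count of 0 were 6.49, 8.18 and 5.79% of all windows.

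Signal used windows whose centre lies in the region. Gene starts, promoters and sequences came from RefSeq TAIR10.1. The 3 libraries were treated as replicates of 1 group, and differences were tested by a two-sided exact sign-flip permutation test with Benjamini-Hochberg adjustment over 10 comparisons. Members, classes and lists were chosen with earlier results of these data known. All 35 members are described. No filter on low values was used. Alternatives changed the window, scaling, pseudocount (0.1), sites (−log10 q of at least 3) and members. The calculation of signal was tested on simulated counts drawn independently for each window. The overlap of neighbouring windows, sites, repeats and differences between gene groups were not simulated. Python 3.11.15, NumPy 2.4.6, pandas 2.3.3, Biopython 1.88, SciPy 1.17.1 and matplotlib 3.10.9 were used.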

Additional observations from a re-analysis of the deposited data

How the results depend on the processing

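Of 118 alternatives, 87 left a value within the spread between libraries or a count within 1.5 times, and 31 moved it. Of the 87, 10 rescale whole libraries, which cannot change a log2 difference. Of the other 94 alternatives for signal differences, 88 were positive and 6 negative. These counts include the alternatives that leave out a library, whose outcome was also fixed. Each difference was positive in every library, so no mean of the remaining libraries could turn negative. By arithmetic such a mean also stays within the spread between libraries. From 400 bp upstream to the start, differences (log2) were 0.61 for PIP minus TIP, 0.61 for PIP minus NIP, -0.0022 for TIP minus NIP, -0.13 for TIP minus SIP, 0.13 for SIP minus NIP, 0.61 for PIP1 minus PIP2, 0.40 for root minus seed or pollen, -0.088 within TIP and 0.12 within NIP. Within 200 bp of the start they were 0.068 for PIP minus TIP, 0.64 for PIP minus NIP, -0.025 for PIP minus SIP, -0.092 for TIP minus SIP, 0.67 for SIP minus NIP, 0.92 within TIP and 0.72 within NIP. With unique windows they were 0.11 for PIP minus TIP, 0.72 for TIP minus NIP, 0.39 for TIP minus SIP, 1.07 within TIP and 0.65 within NIP. With medians they were 0.68 for TIP minus NIP, 1.41 within TIP and -0.015 within NIP. Counting NIP4-1 and NIP4-2 once gave 0.40 within NIP, and leaving out PIP2-2 and PIP2-3 gave 0.90 for PIP1 minus PIP2. Of alternatives chosen after seeing the data, leaving out TIP1-2 gave 0.12 for PIP minus TIP, 0.74 for TIP minus NIP, 0.38 for TIP minus SIP and 1.14 for root minus seed or pollen within TIP, and leaving out the PIP genes gave 0.62 for root minus seed or pollen. The cause was not tested, except that TIP1-2 lies at a repeat.

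Leaving out 1 library at a time gave 0.78 to 0.92 for PIP minus NIP, 0.44 to 0.54 for PIP minus SIP, 0.27 to 0.33 for PIP minus TIP, 0.65 to 0.71 for PIP1 minus PIP2, 0.29 to 0.43 for SIP minus NIP, 0.50 to 0.60 for TIP minus NIP, 0.17 to 0.22 for TIP minus SIP and 0.81 to 0.96 for root minus seed or pollen (0.58 to 0.80 within TIP, 0.53 to 0.59 within NIP). Members with a site near the start in all libraries stayed at 17 of 35 (48.6%), while the share of all genes changed. It was 54.5, 47.1 and 48.2% without library 1, 2 and 3, so the members were above or below it depending on the libraries used. From 2000 bp upstream to the gene end 24, 22 and 21 members had a site, beside 67.6, 60.2 and 60.9% of all genes. No paired analysis was possible because the series has 1 group of samples, and gene groups were compared within each library. With 3 libraries the sign-flip test used cannot pass a threshold of 0.05, and groups of 3 to 16 genes let single members move a mean.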
